A study of Mus musculus with 6 samples.

Results

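Solute carriers that RAW264.7 cells express are described here: 171 genes of the 54532 in the count table. RAW264.7 is a mouse macrophage-like line grown in culture. Members were chosen by name and by their summed counts: protein-coding genes whose symbol begins with Slc, a family number and a letter, with at least 300 counts over the 6 libraries. Slc6a4, Slc11a1, Slc40a1 and Slc48a1 were left out by name, of which 3 had passed the count threshold and Slc40a1 had not. The table holds 371 protein-coding genes named in this way, and of the 197 under the threshold 111 had no count in any library and 86 had at least 1. The members nearest the threshold were Slc7a14 (325 counts), Slc41a3 (354) and Slc25a53 (363), and the genes just under it were Slc25a35 (295), Slc22a21 (280) and Slc27a3 (278). Counts were summed over both groups, so the threshold itself did not use the direction of a difference. Near it, a member could still pass through the group where it is higher. Slc7a14 had 89, 63 and 65 counts in control and 34, 28 and 46 in the libraries labelled ERMAP shRNA. Slc25a53 had 94, 78 and 43 against 36, 46 and 66. All 171 members passed the filter on low counts. Slc7a6os, Slc4a1ap, Slc9a3r1 and Slc9a3r2 meet the naming rule but encode no carrier: Slc9a3r1 and Slc9a3r2, for instance, are the scaffold proteins of a sodium-proton exchanger.

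The solute carriers are membrane proteins that move small molecules and ions across the plasma membrane, the mitochondrial inner membrane and the membranes of lysosomes, endosomes, Golgi and endoplasmic reticulum. They work without direct use of ATP, as facilitators or by coupling one solute to the gradient of another. Family numbers follow sequence and, loosely, substrate. In macrophages they supply glucose and glutamine, export lactate, handle metals, and carry digested peptides and bacterial fragments out of lysosomes.

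RNA was counted in 3 wild-type libraries with no shRNA recorded, called control here, and in 3 libraries labelled as ERMAP knockdown by a lentiviral shRNA (short hairpin RNA). The protocol text names the lentivirus for every sample, no control lentivirus is described, and nothing says whether the replicates were separate cultures. The p-values therefore rest on a spread among libraries that could be technical. The question of the series is which genes differ after ERMAP knockdown. Ermap mRNA itself was not lower in the labelled group: 12, 12 and 3 counts in control and 10, 21 and 14 in the labelled libraries, with a log2 fold change of 0.81 (95% interval -0.38 to 2.01, edgeR adjusted p = 0.929). Directions below compare the libraries that carry the ERMAP shRNA label with the controls. Total counts ranged from 13447021 to 16602734, and the members took 1.48% to 1.56% of them. Control replicate 1 stood apart, with 3.69% mitochondrial counts against 1.71% to 2.18% in the other libraries, and the value without it is given beside each fold change of at least 0.1 (log2) that it moves by over 1.5 times. Of 8 macrophage markers 7 were expressed, from 10.8 FPKM for Itgam to 2654 FPKM for Lyz2, while Mertk was listed at 0. FPKM are the authors' counts scaled to gene length and library size. Markers of T cells, B cells, neutrophils, fibroblasts, epithelium, erythroid and mast cells were at 0 in every library for 23 of 28 genes, and each of these 7 lists summed to at most 0.266 CPM (counts scaled to the size of the library) in any library.

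Among the 171 members 1 gene rose and 0 fell. Slc6a4, a carrier left out by name, was called lower (log2 fold change -1.53, edgeR adjusted p = 0.0134). Slc9a9, an endosomal sodium-proton exchanger, averaged 3.73 CPM in control (SD 1.20, n = 3) and 11.96 CPM in the labelled libraries (SD 1.73, n = 3), 1.68 apart on the log2 scale. The test was edgeR's quasi-likelihood test over 12491 genes, called at a Benjamini-Hochberg adjusted p under 0.05. Of all genes tested 1.01% were called higher and 0.136% lower, so 1 of 171 members (0.585%) is near that background. At an unadjusted p under 0.05, 7 members were higher and 4 lower (4.09% and 2.34%), against 3.71% and 3.04% of all genes. DESeq2 called 3 members higher, Slc9a9, Slc15a3 and Slc2a6, and 0 lower, where it called 1.23% and 0.378% of its genes. The median log2 fold change of the members was 0.01, and -0.01 over all genes tested.

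Most carriers differed little, much as other genes above the same count threshold did. The middle 50% of members lay between -0.07 and 0.10 on the log2 scale. An absolute log2 fold change of at least 0.5 was reached by 6 members (3.51%, against 8.54% of all genes tested). The genes tested include many with fewer counts than any member, so these shares are not of like genes. The 5th and 95th percentiles were -0.28 and 0.29 for the members. They were -0.33 and 0.29 for protein-coding genes with at least 300 counts. Those 6 were Slc9a9, Slc15a3, Slc2a6 and Slc22a17 above 0 and Slc7a14 and Slc16a4 below. For 130 of 171 members the whole 95% interval lay within a 1.5-fold change in either direction, and for 164 within a 2-fold change. Protein-coding genes with at least 300 counts, the same threshold, gave 72.9% and 95.3% on these measures, where the members gave 76.0% and 95.9%. In CPM the groups did not overlap for 14 members that were higher (8.19%) and 8 that were lower (4.68%), against 7.74% and 6.47% of all genes tested.

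**Figure D1:**
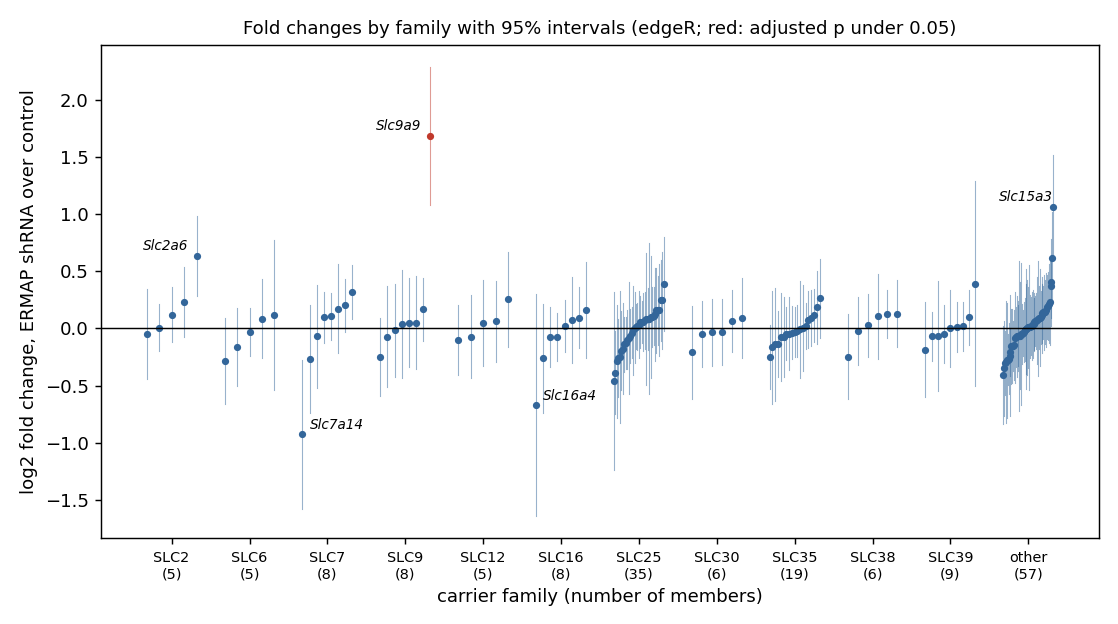
Log2 fold change of each member (libraries labelled ERMAP shRNA over control, n = 3 each, edgeR) on the vertical axis, by carrier family on the horizontal axis for families of at least 5 members and pooled for the rest, with vertical lines for 95% intervals. Slc9a9 is the single called member at 1.68, Slc15a3 at 1.07 and Slc2a6 at 0.64 lie next above 0, and Slc7a14 at -0.93 is the lowest.

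Slc9a9 encodes NHE9, which exchanges sodium or potassium for protons and sets the pH of recycling endosomes. The gene (ENSMUSG00000031129) lies on the plus strand of chromosome 9 in mm10, from 94669909 to 95230445. Its level was 4.36, 2.35 and 4.49 CPM in control replicates 1 to 3 and 11.6, 10.4 and 13.8 CPM in the labelled replicates. Each labelled library was above every control library by more than 2-fold. The fold change had a 95% interval of 1.08 to 2.29 (SE 0.26, edgeR adjusted p = 0.0243). It was 1.81 without control replicate 1 (adjusted p = 9.64e-06), and the call was lost without control replicate 3 or without any 1 labelled replicate (adjusted p up to 0.152). With 690 counts in all and 1.37 FPKM, Slc9a9 is among the scarcer members, 160 of 171 by level.

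Promoter sequences were available for 135 of the 171 members, from RefSeq on GRCm38.p6 (the assembly of mm10). Those of the 3 members with the smallest p among the higher ones that have an entry are shown, as the 250 bases before the annotated start, since these genes are among those whose groups did not overlap. They were searched on both strands for the motifs of 6 response elements. Capitals mark a match, lower case the rest. Slc9a9 lies at chr9:94669642-94669891 on the plus strand, Slc2a6 at chr2:27027999-27028248 and Slc22a17 at chr14:54913133-54913382, both on the minus strand.
Slc9a9: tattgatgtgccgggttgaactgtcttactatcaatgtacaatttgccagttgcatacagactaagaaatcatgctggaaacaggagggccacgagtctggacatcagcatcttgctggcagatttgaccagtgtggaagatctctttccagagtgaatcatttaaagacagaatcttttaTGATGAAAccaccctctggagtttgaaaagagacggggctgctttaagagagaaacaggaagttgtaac
Slc2a6: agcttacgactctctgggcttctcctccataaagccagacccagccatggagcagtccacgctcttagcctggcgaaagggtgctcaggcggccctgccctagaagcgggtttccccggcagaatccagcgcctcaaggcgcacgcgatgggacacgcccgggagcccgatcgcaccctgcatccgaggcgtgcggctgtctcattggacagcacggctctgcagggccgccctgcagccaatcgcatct
Slc22a17: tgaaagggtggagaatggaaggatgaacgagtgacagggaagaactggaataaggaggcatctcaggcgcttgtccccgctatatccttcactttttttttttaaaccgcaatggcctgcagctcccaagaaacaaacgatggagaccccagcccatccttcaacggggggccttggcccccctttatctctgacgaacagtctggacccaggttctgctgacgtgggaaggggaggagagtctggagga
The single match among them is TGATGAAA in Slc9a9, from 69 to 62 bases before the start, which fits TGATGNAA, the core of the amino acid response element. Slc2a6 and Slc22a17 held none of the letters searched in these windows. GC content of the 3 windows was 42.8%, 65.2% and 53.6%.

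Slc15a3 encodes PHT2, a lysosomal carrier of histidine and small peptides that is coupled to protons. It had 7.40, 12.5 and 11.4 CPM in the control libraries and 22.6, 22.3 and 20.7 CPM in the labelled ones, so the groups did not overlap. This is a log2 fold change of 1.07 (SE 0.20, 95% interval 0.61 to 1.52), and edgeR's adjusted p of 0.0547 just missed the threshold. Without control replicate 1, the lowest library, it was 0.87 and called (adjusted p = 3.26e-05). Slc15a3 (chromosome 19, 10839727 to 10859362, plus strand) shares 1541 exon bases with Tmem132a on the other strand, whose own log2 fold change was 0.70 at 276 counts (adjusted p = 0.929). The strand setting of the counting is not given, so reads of the pair cannot be told apart. Its close relative Slc15a4, PHT1, which feeds peptides and histidine out of endolysosomes, differed little: 13.6 ± 0.516 FPKM in control and 14.3 ± 0.969 FPKM in the labelled group (mean ± SD, n = 3), with a log2 fold change of 0.06.

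Slc2a6 encodes GLUT6, a hexose facilitator of the lysosomal membrane. Control libraries held 63.6, 94.7 and 87.0 CPM and labelled libraries 123, 123 and 136 CPM. All labelled values were above all control values, and control replicate 1 was the lowest of the 6. Its log2 fold change, 0.64 (SE 0.15, edgeR adjusted p = 0.164), was not called, and it was 0.48 and called without control replicate 1 (adjusted p = 0.000112). Slc22a17, described as a receptor for the siderophore-binding protein lipocalin-2, had 3.80, 4.94 and 4.56 CPM in the controls against 6.50, 7.05 and 6.92 CPM in the labelled libraries. Its groups were apart as well, yet the log2 fold change of 0.62 was not called with (adjusted p = 0.279) or without control replicate 1 (0.138).

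**Figure D2:**
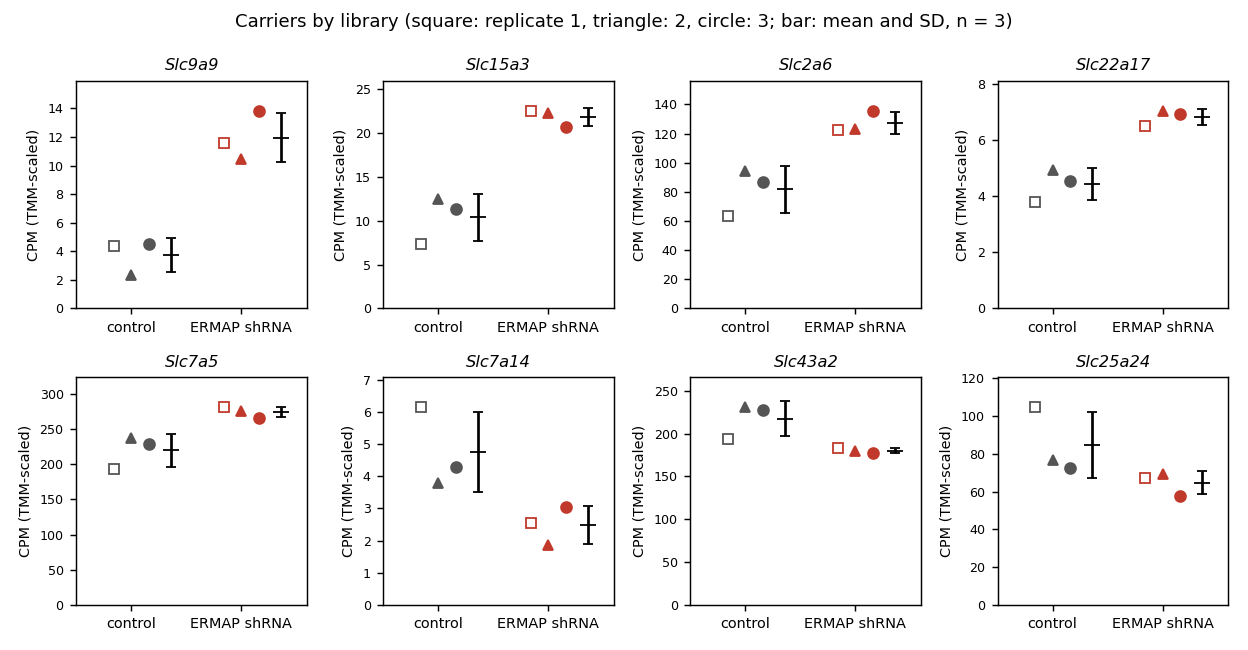
TMM-scaled CPM of 8 carriers in each library, control in grey and ERMAP shRNA in red, with mean and SD (n = 3) as black bars and a linear axis from 0. In each panel the groups do not overlap, and control replicate 1 (open grey square) is the lowest control library for Slc15a3, Slc2a6, Slc22a17, Slc7a5 and Slc43a2 and the highest for Slc7a14 and Slc25a24.

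Carriers of amino acids and peptides (28 members, families 1, 3, 6, 7, 15, 36, 38 and 43) included the highest levels of the plasma membrane set, and 0 were called by edgeR in either direction. The 28 include Slc7a6os, which encodes no carrier. Slc6a12, a betaine and GABA transporter, had 123 FPKM over the 6 libraries and Slc6a6, the taurine transporter, 91.0 FPKM. Slc1a5, the glutamine carrier ASCT2, followed at 83.5 FPKM and Slc38a2, the glutamine and alanine carrier SNAT2, at 75.7 FPKM. In controls these were 130 ± 22.3, 91.9 ± 6.53, 79.3 ± 15.2 and 76.2 ± 12.5 FPKM (mean ± SD, n = 3), so Slc6a6, Slc1a5 and Slc38a2 do not separate beyond their spread.

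The large neutral amino acid exchanger is built of the light chain Slc7a5 (LAT1) and the heavy chain Slc3a2 (CD98). Slc7a5 had 193, 237 and 228 CPM in the controls against 282, 276 and 267 CPM in the labelled libraries. The groups did not overlap, and the log2 fold change of 0.32 (95% interval 0.08 to 0.56) was not called (edgeR adjusted p = 0.4). Without control replicate 1 it was 0.23 and called (adjusted p = 0.0317). Slc3a2 gave 0.23 with an interval of -0.14 to 0.61, and 0.06 without control replicate 1. Slc1a4, the alanine, serine and cysteine carrier ASCT1, averaged 16.9 CPM in control (SD 0.818, n = 3) and 21.8 CPM in the labelled libraries (SD 1.496, n = 3), a difference edgeR did not call (adjusted p = 0.41).

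On the lower side, Slc43a2, the neutral amino acid facilitator LAT4, had 194, 231 and 227 CPM in the controls against 183, 179 and 178 CPM. Every labelled library was below every control library, and the log2 fold change of -0.27 was not called (edgeR adjusted p = 0.53). It was -0.35 and called without control replicate 1 (adjusted p = 0.00059), which here was the control nearest the labelled values. Slc7a14, a relative of the cationic amino acid transporters, had the lowest log2 fold change of all members, -0.93 (95% interval -1.58 to -0.28, adjusted p = 0.352). That value rests on 6.15, 3.79 and 4.29 CPM in the controls against 2.54, 1.86 and 3.06 CPM in the labelled libraries, the smallest summed count of any member. Slc7a14 passed the count threshold mainly through its control libraries. Slc7a11, the cystine-glutamate exchanger that supports glutathione synthesis, stood at 1.99 FPKM, with a log2 fold change of -0.07 (-0.52 to 0.38). Slc38a9, the lysosomal arginine sensor of the mTORC1 pathway, gave -0.25, and -0.08 without control replicate 1.

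Carriers of sugars and monocarboxylates (22 members, families 2, 5, 16, 37, 45 and 50) were led by the glycolytic pair of glucose uptake and lactate export, and 0 were called. Slc16a3, the lactate exporter MCT4, had 108 FPKM, Slc2a1, the glucose facilitator GLUT1, 88.8 FPKM and Slc16a1, the lactate and pyruvate carrier MCT1, 80.7 FPKM. Their log2 fold changes were 0.16, 0.12 and 0.02, with 95% intervals of -0.26 to 0.58, -0.12 to 0.36 and -0.20 to 0.24. Slc16a3 had 388 CPM in control replicate 1 and 640 and 614 CPM in the other controls, against 642, 579 and 620 CPM in the labelled group. Its difference was -0.04 without control replicate 1, and that of Slc2a1 was 0.03. Slc2a1 made up 63.8% of the FPKM of the 5 GLUT members, ahead of Slc2a6 (32.3 FPKM) and Slc2a3 (7.84 FPKM), a high-affinity glucose facilitator. Slc16a12, a relative known to move creatine, reached 46.9 FPKM. Slc37a2, a sugar-phosphate carrier of the endoplasmic reticulum, was 72.2, 66.7 and 73.1 CPM in the controls against 59.8, 60.4 and 63.3 CPM in the labelled libraries, groups that did not overlap, with a log2 fold change of -0.21 (adjusted p = 0.756). Slc5a3, the sodium-coupled myo-inositol transporter, gave -0.41 (adjusted p = 0.777) with overlapping groups, -0.25 without control replicate 1 and -0.60 without control replicate 2. It shares 159 exon bases with Mrps6 on the same strand. Slc16a4 gave -0.67 with all libraries and -0.06 without control replicate 1, which held 14.7 CPM against 3.79 to 6.59 CPM in the other 5.

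Mitochondrial carriers of family 25, the largest family with 35 members, held 34.8% of the members' summed FPKM, and 0 were called. Slc25a5, the ADP/ATP translocase ANT2, had 504 FPKM and alone made up 42.8% of that family. Slc25a3, the phosphate carrier, had 112 FPKM, Slc25a4, the translocase ANT1, 81.2 FPKM, Slc25a39, the glutathione carrier, 74.1 FPKM and Slc25a11, the oxoglutarate-malate carrier, 65.0 FPKM. Summed over the family, controls held 1096, 1221 and 1190 FPKM and labelled libraries 1210, 1140 and 1211 FPKM. Those values overlap. Slc25a5 differed by 0.02 on the log2 scale (95% interval -0.18 to 0.21) and Slc25a3 by 0.06 (-0.13 to 0.24), although the groups did not overlap for Slc25a3 (608 to 621 CPM in control, 633 to 643 CPM in the labelled group).

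With all libraries the family's extremes were Slc25a22 and Slc25a53, and without control replicate 1 they were Slc25a14 (0.29) and Slc25a43 (-0.23). Slc25a22, a mitochondrial glutamate carrier, had 26.5, 41.8 and 41.9 CPM in the controls against 48.2, 48.4 and 47.5 CPM in the labelled libraries (log2 fold change 0.39, edgeR adjusted p = 0.777), and its fold change was 0.19 without control replicate 1. Slc25a53, at 0.502 FPKM, gave -0.46 (adjusted p = 0.937), and -0.16 without that library. Slc25a24, which moves ATP-magnesium against phosphate, had 105, 76.8 and 72.8 CPM in the controls against 67.4, 69.2 and 57.7 CPM in the labelled libraries. Its groups did not overlap, and its log2 fold change of -0.39 (adjusted p = 0.666) was -0.21 without control replicate 1. Slc25a1, the citrate carrier, gave 0.25 (95% interval -0.18 to 0.67) and 0.05 without that library. Slc25a20, the carnitine-acylcarnitine carrier, stood at 2.80 FPKM and gave -0.18 (-0.57 to 0.22).

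**Figure D3:**
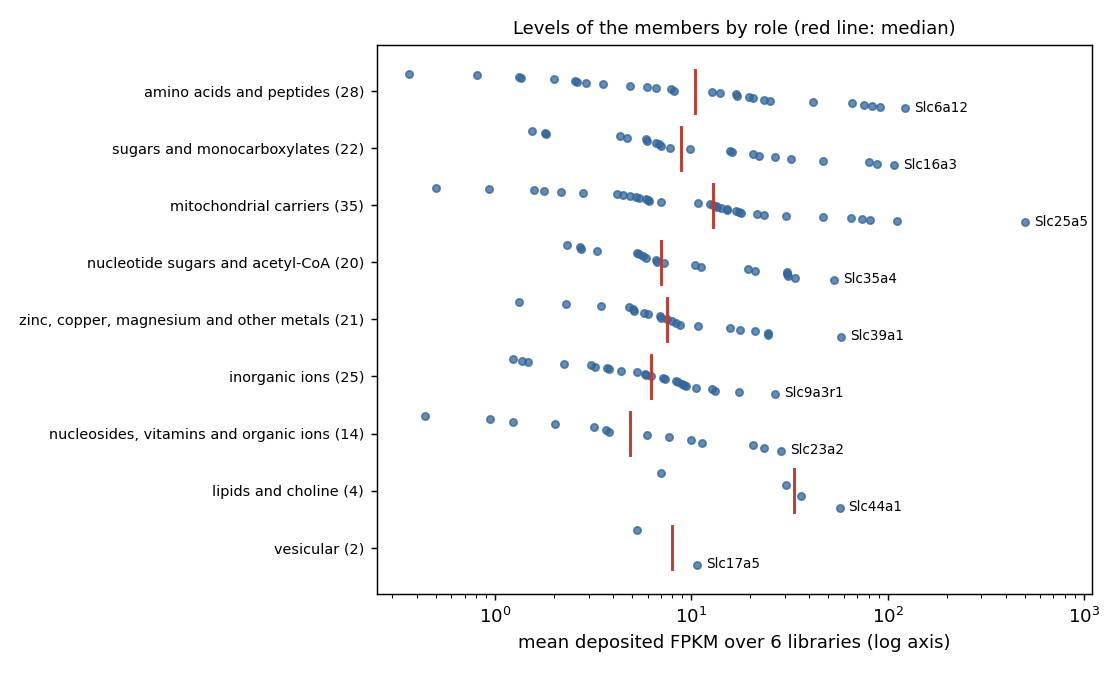
Mean deposited FPKM over the 6 libraries of each member on a log axis, by role, with the number of members in brackets, red lines for medians and the most abundant member named; height within a row only separates the points. Slc25a5 at 504 FPKM stands above all others, and the median of all members is 7.84 FPKM. Slc9a3r1, named in the row of inorganic ions, encodes a scaffold protein and no carrier.

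Levels spanned a 1381-fold range, from 0.365 FPKM for Slc7a14 to 504 FPKM for Slc25a5. Of the members 16 had at least 50 FPKM, 73 at least 10 FPKM and 6 under 1 FPKM, and the 10 most abundant held 39.8% of the summed FPKM. The 10 were Slc25a5, Slc6a12, Slc25a3, Slc16a3, Slc6a6, Slc2a1, Slc1a5, Slc25a4, Slc16a1 and Slc38a2. None of these 10 was called by edgeR with all libraries or without control replicate 1. In 8 of the 49 families in the table no gene reached 300 counts, among them family 14 of urea transporters (Slc14a1, 16 counts), family 28 of concentrative nucleoside carriers (Slc28a2, 6 counts), family 34 of sodium-phosphate carriers (Slc34a1, 3 counts) and family 18 of vesicular amine carriers (Slc18a2, 267 counts).

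Carriers of nucleotide sugars and acetyl-CoA into the Golgi and endoplasmic reticulum (20 members, families 33 and 35) showed the narrowest range of fold changes among roles with at least 5 members, from -0.25 for Slc35b4 to 0.26 for Slc35c1, and 0 were called. Slc35a4 had the highest level at 53.5 FPKM, then Slc35c2 at 33.6, Slc35e4 at 31.2, Slc35b1 at 30.8 and Slc35b2 at 30.6 FPKM, and the last 4 overlap within their spread. Slc35b2 brings in the sulfate donor PAPS and Slc35b1 exchanges ATP and ADP at the endoplasmic reticulum. Slc35c1, the GDP-fucose carrier, had 45.1, 63.8 and 65.8 CPM in the controls against 66.9, 70.8 and 72.1 CPM in the labelled libraries, groups that did not overlap (adjusted p = 0.906). Its fold change of 0.26 was 0.11 without control replicate 1. Slc35a1, the CMP-sialic acid carrier, gave -0.08 (95% interval -0.46 to 0.31). Slc33a1, the acetyl-CoA carrier, gave -0.24, and 0.10 without control replicate 1.

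Zinc, copper, magnesium and other metal carriers (21 members, families 11, 30, 31, 39 and 41) held 0 called genes. ZIP proteins of family 39 bring zinc into the cytosol and ZnT proteins of family 30 take it out. Slc39a1 (ZIP1) was the most abundant importer at 58.1 FPKM and differed by 0.01 (95% interval -0.20 to 0.23). Slc30a5 (ZnT5) was the most abundant of the 6 ZnT members at 24.6 FPKM and differed by -0.05 (-0.34 to 0.24). Slc39a14 (ZIP14), which also carries iron and manganese, gave 0.02 (-0.20 to 0.23), and Slc30a1 (ZnT1), the plasma membrane zinc exporter, 0.07 (-0.21 to 0.34). The highest value in family 39 was 0.39 for Slc39a7 (ZIP7), from 2.42, 5.54 and 7.59 CPM in the controls against 6.50, 5.19 and 8.78 CPM in the labelled libraries, which overlap, and it was 0.06 without control replicate 1. Slc39a7 shares 2084 exon bases with Gm20427 (8 counts) on the same strand, and how reads in shared bases were counted is not given. Slc11a2 (DMT1), the proton-coupled importer of ferrous iron, gave -0.01 (-0.29 to 0.26). Slc31a1, the copper importer CTR1, had 21.2 FPKM and gave -0.07. Slc41a2, a magnesium carrier, had 32.2, 27.5 and 26.1 CPM in the controls against 22.2, 23.2 and 24.2 CPM in the labelled libraries, without overlap, and its log2 fold change of -0.30 was not called (edgeR adjusted p = 0.666).

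Inorganic ion carriers (25 members, families 4, 8, 9, 12, 20, 24 and 26) contained the called gene Slc9a9, and no other member of them was called with all libraries. Slc4a1ap, Slc9a3r1 and Slc9a3r2 are counted in this role by name but encode no carrier. Of the 25, Slc9a3r1 had the highest level, 26.7 FPKM. Slc9a8, a sodium-proton exchanger of the Golgi, gave 0.17 (95% interval -0.11 to 0.44), and 0.07 without control replicate 1. In level Slc9a9 was 2.09 ± 0.304 FPKM in the labelled libraries (mean ± SD, n = 3). Slc4a2, the chloride-bicarbonate exchanger AE2, was chosen after its values were seen: it gave -0.14 with all libraries and -0.28 without control replicate 1, where it was called (adjusted p = 0.0247), and it shares 1141 exon bases with Fastk on the other strand. Slc12a2, the sodium-potassium-chloride cotransporter NKCC1, gave 0.05 (-0.32 to 0.42), and Slc20a1, a phosphate carrier that retroviruses use as receptor, 0.10 (-0.14 to 0.33). Without control replicate 1 these were 0.25 and 0.16.

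Carriers of nucleosides, vitamins and organic ions (14 members, families 10, 13, 19, 22, 23, 29, 46 and 52) held 0 called genes. Slc29a2, the nucleoside facilitator ENT2, had 6.50, 9.03 and 8.19 CPM in the controls against 10.8, 10.4 and 10.2 CPM in the labelled libraries, without overlap (log2 fold change 0.40, edgeR adjusted p = 0.666). Slc29a1 (ENT1), the most abundant of its family at 20.6 FPKM, gave -0.03, and Slc29a3 (ENT3) of lysosomes 0.06. Slc23a2, a sodium-coupled vitamin C transporter, had 248, 212 and 294 CPM in the controls against 207, 194 and 227 CPM in the labelled libraries, and its groups overlapped (log2 fold change -0.27, adjusted p = 0.855). Slc19a1, the reduced folate carrier that also takes up cyclic dinucleotides, had 23.5 FPKM and gave 0.14 (95% interval -0.09 to 0.37), and 0.06 without control replicate 1. Slc46a3, a lysosomal relative of the folate carrier family, gave -0.00 (-0.53 to 0.52). Slc22a15 gave -0.35 with groups that did not overlap (adjusted p = 0.865).

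Lipid and choline carriers were 4 and vesicular carriers 2, with 0 called in both. Slc44a1, a choline transporter, had 56.9 FPKM and gave -0.15 (95% interval -0.48 to 0.17), Slc44a2 30.5 FPKM and -0.04, and Slc27a1, a fatty acid transport protein, 36.3 FPKM and -0.07. Without control replicate 1, Slc44a1 gave 0.00 and Slc27a1 -0.23. Slc17a5, the sialic acid exporter of lysosomes, gave -0.15 and Slc17a9, the vesicular nucleotide transporter, -0.06, which was -0.27 without control replicate 1.

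Partner subunits and carriers with other names held no called gene. Of 35 such genes listed, 28 passed the filter, and edgeR and DESeq2 each called 0, while an unadjusted p under 0.05 was reached by 1 higher and 2 lower genes (3.57% and 7.14%, against 3.71% and 3.04% of all genes). Bsg (basigin), the chaperone that brings Slc16a1 and Slc16a3 to the cell surface, had 463 CPM in the controls against 518 CPM in the labelled libraries (log2 fold change 0.16, and 0.00 without control replicate 1). Ucp2, a mitochondrial carrier relative, gave -0.01 and the organic anion transporter Slco4a1 0.12, which was -0.00 without control replicate 1. Mpc1 and Mpc2, the subunits of the mitochondrial pyruvate carrier, gave 0.22 and 0.09, and the phosphate exporter Xpr1 -0.41 (adjusted p = 0.564). Without control replicate 1, Mpc2 gave -0.10, Xpr1 -0.22 and Pqlc3 -0.23. The 3 with an unadjusted p under 0.05 were Mfsd2a (0.41), Xpr1 and Pqlc3 (-0.36).

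Control replicate 1 deviated most strongly with GC content across all genes, carriers included, and other libraries deviated as well. Across the 171 members its log2 deviation from the other controls had a Spearman rho of -0.852 with GC content, and across 12476 tested genes the rho was -0.748, both descriptions over genes that share libraries. Labelled replicate 2, measured against its own group, had -0.447 and -0.422. Over the members, labelled replicates 1 and 3 had 0.230 and 0.280. Control replicates 2 and 3 had 0.768 and 0.636, against a mean that includes control replicate 1. The fit without control replicate 1 keeps these libraries. The median absolute deviation of a member from the other libraries of its group was 0.31 on the log2 scale in control replicate 1. It was 0.20 and 0.15 in the other controls and 0.07 to 0.09 in the labelled libraries. The values of the other controls are not comparable with the labelled ones, since their reference includes control replicate 1. The fold changes followed GC content with a rho of 0.413 with all libraries and -0.265 without control replicate 1. With offsets for GC content the rho was 0.0902, which the offsets bring near 0 by construction. The sign of the fold change differed between the fits with and without that library for 48 members. The 10 members with the smallest p among those higher had a median GC content of 56.9%, and control replicate 1 was below the mean of the other controls in 9 of them. The exception was Slc9a9, with a GC content of 45.4%, where control replicate 1 (4.36 CPM) lay between the others (2.35 and 4.49 CPM). The 10 lower ones had a median GC content of 48.6%, and control replicate 1 was below that mean in 4 of them and above it in 6. Over all 171 members the median GC content was 51.3%, and control replicate 1 was below that mean in 103 and above it in 68. Control replicate 1 itself enters the fold change and p by which both lists of 10 were picked. Without control replicate 1 edgeR called 4 members higher (2.34%, against 2.67% of all genes) and 2 lower (1.17%, against 2.19%). With GC offsets it called 3 higher (1.75%, against 2.16%) and 2 lower (1.17%, against 1.66%). Slc9a9, Slc15a3 and Slc2a6 were called higher in both fits and Slc43a2 lower in both, Slc7a5 and Slc4a2 without the library alone, and Slc25a24 with the offsets alone. The part of this library's mitochondrial share in these results was not tested.

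**Figure D4:**
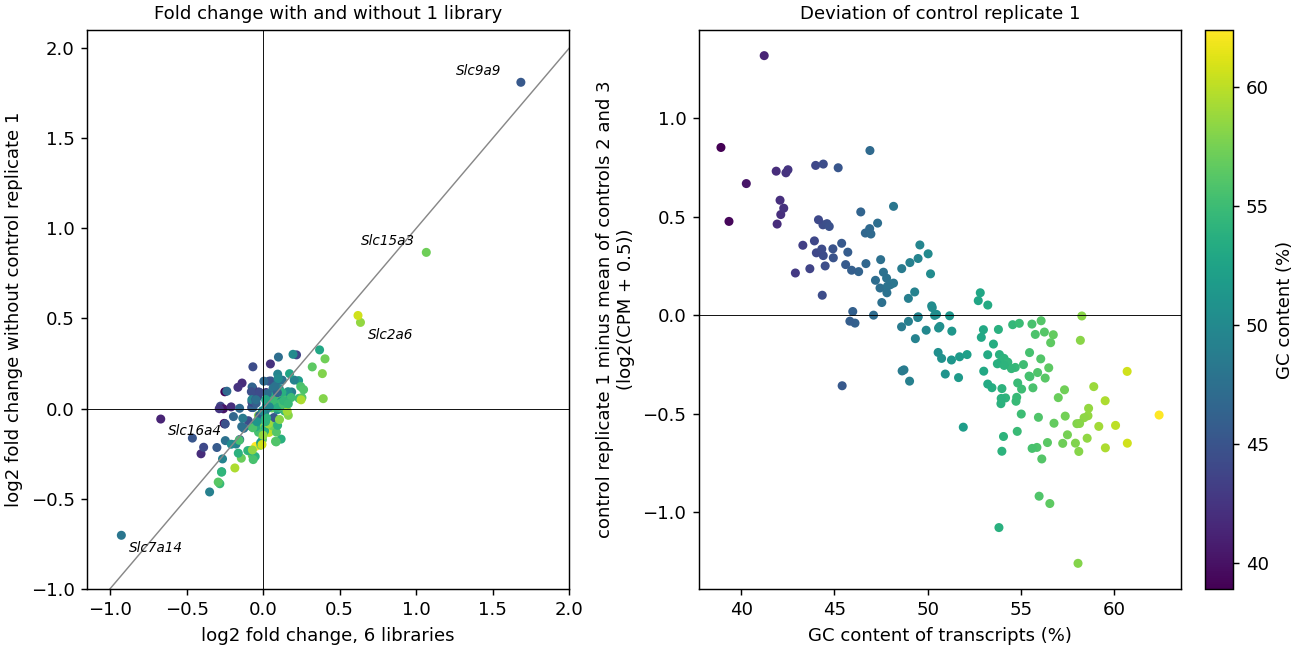
Left, log2 fold change of the 171 members with all 6 libraries (horizontal) and without control replicate 1 (vertical), with the line of equal values; right, the log2 difference of control replicate 1 from the mean of the other controls against the GC content of transcripts in percent, and colour for GC content in both panels. Slc9a9 gives 1.68 and 1.81, Slc16a4 moves from -0.67 to -0.06, and the deviation falls with GC content (Spearman rho -0.852).

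Promoters of the members held the searched letters at shares that differ between motifs. The antioxidant response element TGACNNNGC was in 22.3% of the 188 member promoters, against 12.4% of all 32851 promoters of 300 bases in the table and 14.5% of those of protein-coding genes with at least 300 counts. The E-box CACGTG was in 14.4%, against 7.15% and 10.6%, and the metal response letters TGCACNC or TGCGCNC in 33.5%, against 25.7% and 36.3%. The interferon-stimulated response element, GAAA, any 2 bases and GAAA again, was in 1.596%, against 3.44% and 3.05%, in Slc25a15, Slc25a22 and Slc37a1. TTCNNNGAA, the gamma-activated sequence, was in 4.79%, against 8.30% and 6.61%, and TGATGNAA in 3.19%, against 3.97% and 2.18%. Slc1a4, Slc7a11, Slc7a7, Slc50a1 and Slc9a9 are the members with TGATGNAA, and their median log2 fold change was 0.17 (Slc7a11 -0.07, Slc9a9 1.68), against -0.00 for members without it. The 0.17 is the value of Slc7a7, which shares exon bases with the more abundant Oxa1l on the other strand. The median was -0.07 for the 9 members with TTCNNNGAA and 0.01 for those without. For the 36 members with a match to TGACNNNGC the median was 0.01 and for the rest -0.02. In each of these comparisons the members without a match are those among the 135 members with a promoter. Some genes have several promoters in the table, matches of different motifs may overlap, and a match describes the letters alone.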

How the data were processed

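Total RNA of 6 RAW264.7 libraries was sequenced (NEBNext Ultra kit, per the labels' protocols). Deposited by the authors were raw read counts and FPKM for each gene and library. Per the submitters' processing notes, HISAT2 and the mm10 build were used. Which program counted reads, on which strand and against which annotation is not given in the sources used here. Deposited FPKM equal the counts over gene length times a factor of the library, so they were used for levels between genes and CPM for levels between libraries. Column names give each library's group and a number, which could not be tied to single samples.

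Counts of all genes were tested with edgeR 4.0.16 (R 4.3.3, limma 3.58.1): TMM factors, filterByExpr at a minimum count of 10, robust quasi-likelihood fit, Benjamini-Hochberg adjustment over the genes tested, called under 0.05. The procedure was checked on simulated data with known changes. No simulated library deviated with GC content, so the check does not cover the deviation of control replicate 1. GC content came from GENCODE vM21 transcripts, and 161 of 171 members have the same coordinates there as in the files. Exons shared with another gene that has at least 10% of a member's counts occur in 15 members. Promoters are RefSeq's, GRCm38.p6.

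Members and lists were chosen with earlier results of these data known. Genes named with values are the called members, the 10 smallest p in each direction, the 10 most abundant, each larger family's most abundant and most extreme members, the 3 on either side of the threshold, and, after their values were seen, further members with a well known role. Alternatives were other size factors, DESeq2 1.42.0, limma-voom without and with library weights, limma-trend on log2 FPKM with a pseudocount of 1 or 0.1, other filters, GC offsets, a replicate block, left-out libraries and other member rules; leaving out the 4 non-carriers was added after the data had been seen. Shared replicate numbers were not taken as pairs, since the labels state no pairing. The group means of FPKM and a protein table were not used here. Values of some members are not reported here.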

Additional observations from a re-analysis of the deposited data

How the results depend on the processing

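Against 1 member called higher, no filter on low counts gave 3, DESeq2 3, limma-voom 2, limma-voom with library weights 7, GC offsets 3, a member threshold of 1000 counts 0 and an adjusted p under 0.01 0. Against 0 called lower, library weights gave 7, GC offsets 2 and keeping the 4 carriers left out 1, which is Slc6a4. Of all genes, library weights called 3.9% higher and 3.44% lower, where the members gave 4.09% each. The share of all genes called higher was 0.698% without a filter (members 1.75%), 1.23% with DESeq2 (1.75%), 1.02% with limma-voom (1.17%) and 2.16% with GC offsets (1.75%). Leaving out 1 library gave 0 to 4 higher and 0 to 2 lower: dropping control replicate 1 gave 4 and 2, control replicate 2 gave 1 and 0, and each other library gave 0 and 0. The latter were control replicate 3 and the labelled replicates. The cause was not tested, except that a stricter threshold calls fewer genes by construction, that Slc9a9 has under 1000 counts, and that library weights give control replicate 1 the lowest weight, 0.0903. The median log2 fold change of the members stayed between -0.03 (GC offsets) and 0.03 (without control replicate 2) in every alternative run. With the replicate block 1 member was called higher and 0 lower, as without it. Same-numbered libraries had correlated deviations of -0.13, -0.278 and 0.178, and control replicate 1 correlated best with labelled replicate 2 (0.341), so the numbers are not taken as pairs. Such correlations cannot exclude that same-numbered libraries were prepared together. Slc9a9 was called in 13 of its 17 alternatives, Slc15a3 in 6 and Slc2a6 in 5. Of 49 members named by the rule, 32 kept their sign in every alternative, and none of the other 17 was called with the opposite sign. Intervals of members with few counts differ in width. That of Slc7a14 (325 counts) runs from -1.58 to -0.28, that of Slc7a7 (406 counts) from -0.22 to 0.56. Slc7a7 shares 232 exon bases with Oxa1l (10465 counts) on the other strand, so reads of this pair cannot be told apart. For Slc16a4 (626 counts) it runs from -1.64 to 0.30.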
